A study of Mus musculus with 9 samples.

Results

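Liver gene expression after injection of insulin was compared with expression in untreated liver of KKAy mice, an obese strain that serves as a model of type 2 diabetes. The comparison took the 3 arrays labelled insulin and the 3 labelled KKAy out of 9 in all, and the other 3 arrays, of mice given partly biomineralized insulin (BI), entered the fit and stood beside the results. Every probe set except the Affymetrix controls was a member, 45037 of the 45101 on the array, and most of the description concerns the 17547 probe sets whose mean over the 9 arrays was 7 or more on the log2 scale. All groups were KKAy mice of 8 weeks on chow with 34% fat, with no transgene or deletion named in the labels. The growth protocol given for BI replicate 2 describes rats instead. The insulin group received 100 µL of culture medium (DMEM) with insulin at 40 µg/mL into the peritoneal cavity, and the BI group the same volume and total insulin concentration, 11% of it biomineralized. For the untreated group the labels give the treatment as none, while the protocol speaks of control animals injected with DMEM alone, so an effect of the injection and of the medium cannot be told apart from that of insulin. The labels give neither the time between injection and sampling nor the feeding state of the animals, and 1 array may stand for a single animal or for pooled animals. The spread behind the p-values is that between these samples and may be technical in part.

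Insulin acts on hepatocytes through its receptor, a tyrosine kinase that phosphorylates the IRS adaptor proteins. IRS proteins recruit PI3-kinase, whose lipid product activates AKT. AKT keeps the transcription factor FOXO1 out of the nucleus, inhibits GSK3 and releases mTORC1 signalling. In healthy liver this lowers transcripts of gluconeogenesis and raises transcripts of fat and cholesterol synthesis through the SREBP factors, and in insulin-resistant animals such as KKAy the arms of the pathway can respond unequally.

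The arrays resembled each other closely. Array medians lay between 6.12 and 6.30, and over probe sets with a mean of 7 or more the 6 pairs within the untreated and insulin groups correlated at r = 0.966 to 0.978, the same range as the 9 pairs between the groups. The tissue matched its label: Alb, the serum albumin transcript, stood at 15.15, 15.36 and 15.44 on the untreated arrays and 15.18, 15.31 and 15.41 on the insulin arrays, and all 7 measured hepatocyte markers had group means above 7. Gapdh, read at its 3' and 5' ends as a measure of RNA quality, gave a 3' minus 5' difference of 0.28, 0.31 and 0.65 on the untreated arrays and 0.55, 0.54 and 0.48 on the insulin arrays. The actin difference was 1.90, 1.80 and 2.11 against 2.23, 2.00 and 2.05, so that untreated replicate 3 resembled the insulin arrays more than it resembled its own group. Precision depended on the level: the 95% interval of a difference reached, at the median, 2.12 to either side at mean levels of 3 to 5, 0.58 at 7 to 9 and 0.39 at 12 to 17. In the text, the 3 values of a group stand in the order of the replicate numbers, levels are log2 signals, and differences are insulin minus untreated on the log2 scale ± SE from the limma fit. Signals of different probe sets are not on one scale, and levels of different genes are not compared.

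No single gene separated insulin-injected from untreated liver at the threshold. The limma test with Benjamini-Hochberg adjustment called 0 of 45037 probe sets (0%), with a smallest adjusted p of 0.171, or 0.812 among probe sets with a mean of 7 or more. An unadjusted p under 0.05 was found for 2014 probe sets (4.47%), of which 242 had a mean of 7 or more (1.38% of those). Over the 9559 genes with such a mean, counted by their brightest probe set, it was found for 123 (1.29%). A limma fit to the probe sets with a mean of 7 or more alone gave 700 at an unadjusted p under 0.05, with 0 called. The unadjusted counts and the SE at this level thus depend on which probe sets share the fit. The 3 insulin arrays all lay above or all below the 3 untreated arrays for 4140 probe sets (9.19%). With 3 arrays against 3, random grouping alone would separate 10% of probe sets in this way. Each gene was then represented by its brightest probe set, which gave 18193 genes, 9559 of them with a mean of 7 or more. Of the latter, 52.9% were higher in the insulin group and the median difference was 0.01, while with array medians set equal 40.0% were higher and the median was -0.04. Groups did not overlap for 817 of the 9559 genes (8.55%), 494 of them with insulin higher (5.17%) and 323 with insulin lower (3.38%). A difference under 0.5 in size was found for 96.1% of these genes. A difference of 2-fold or more was found for 22 genes in the higher direction (0.23%), 11 of them without overlap, and for 9 in the lower (0.0942%), 5 of them without overlap.

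**Figure D1:**
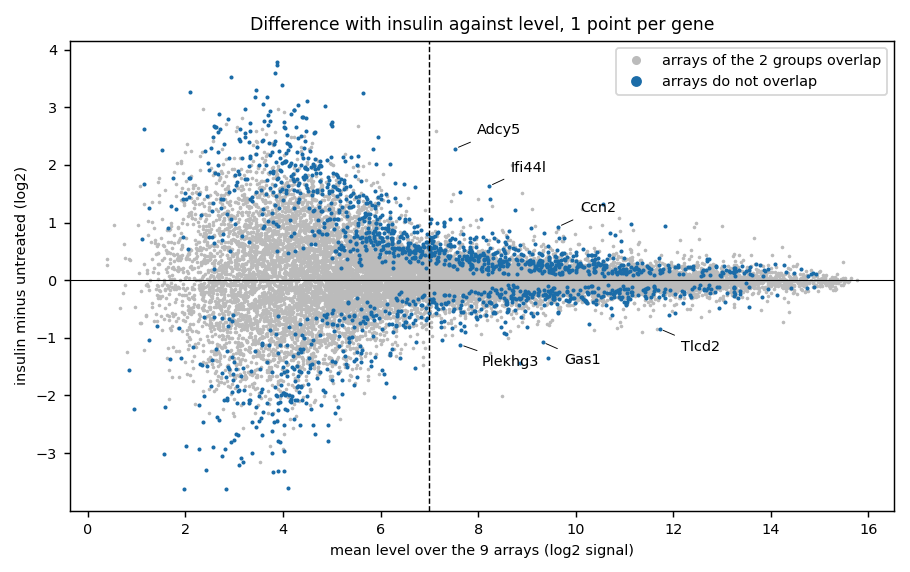
Difference between insulin and untreated liver (log2, y axis) for each gene against its mean level over the 9 arrays (log2, x axis). Differences scatter widely at low levels, where their 5th and 95th percentiles were -1.38 and 1.57 below a mean of 7, and narrow to -0.31 and 0.37 at 7 or more; named genes are marked.

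Among genes with a mean of 7 or more whose arrays did not overlap, the 15 of smallest p with insulin higher differed by 0.50 to 2.28, and none passed the threshold (adjusted p 0.812 to 1.0 in the limma fit). Adcy5 encodes an adenylyl cyclase, an enzyme that makes cyclic AMP. It stood at 5.59, 5.24 and 7.38 on the untreated arrays and 8.14, 8.58 and 8.35 on the insulin arrays, a difference of 2.28 ± 0.52 (95% interval 1.07 to 3.49). All 3 insulin arrays were above the highest untreated array, and untreated replicate 3 was the highest of its group by far. This probe set is of a type whose probes can match other transcripts, and the 3 other Adcy5 probe sets, with means between 4.66 and 6.36, gave -0.91 ± 0.40, 0.68 ± 0.56 and 0.21 ± 0.19. Esrrg, an orphan nuclear receptor of oxidative metabolism, stood at 6.50, 6.41 and 6.54 on the untreated arrays and 7.80, 7.02 and 7.61 on the insulin arrays, a difference of 0.99 ± 0.28. The untreated arrays lay close together, and insulin replicate 2 was the nearest to them. Another Esrrg probe set with a mean of 5.40 gave 1.63 ± 0.58, also without overlap, and the third gave 0.16 ± 0.56. Sh2b1, an adaptor that binds the insulin receptor and JAK2 and supports insulin signalling, stood at 8.76, 8.70 and 8.71 on the untreated arrays and 9.14, 9.44 and 9.50 on the insulin arrays. The difference was 0.64 ± 0.19 (95% interval 0.20 to 1.07), and the BI arrays, at 9.62, 9.48 and 9.16, all lay above the untreated arrays too. Ikbip, which encodes a protein that binds the kinase IKKβ, stood at 7.95, 7.90 and 8.39 on the untreated arrays and 8.81, 8.94 and 8.65 on the insulin arrays. The difference was 0.72 ± 0.19, and its second bright probe set gave 0.08 ± 0.26.

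Ccn2, a secreted matrix protein also known as connective tissue growth factor, stood at 8.71, 9.44 and 9.55 on the untreated arrays and 10.24, 10.29 and 9.95 on the insulin arrays, a difference of 0.93 ± 0.28. Id4, an inhibitor of basic helix-loop-helix transcription factors, stood at 7.14, 7.15 and 6.86 on the untreated arrays and 7.57, 7.53 and 7.54 on the insulin arrays. Its insulin arrays were nearly equal, its difference was 0.50 ± 0.16, and 2 other Id4 probe sets just below a mean of 7 gave 0.68 ± 0.34 and 0.61 ± 0.38. Mpzl1, a cell surface glycoprotein that binds the phosphatase SHP2, stood at 7.79, 7.24 and 7.64 on the untreated arrays and 8.10, 8.55 and 8.27 on the insulin arrays. Its difference was 0.75 ± 0.21 and that of its second probe set 0.62 ± 0.30. Siah1a, a ubiquitin ligase, had a difference of 0.62 ± 0.18 on its brightest probe set but -0.04 ± 0.30 and 0.17 ± 0.21 on the others. Pdzd11, a PDZ domain protein, likewise had 0.68 ± 0.18 on a probe set of the cross-matching type and -0.08 ± 0.21 on a bright one. The intermediate filament gene Nes (0.74 ± 0.21), the snoRNA host gene Snhg3 (0.74 ± 0.22), the zinc finger gene Zfp9 (0.83 ± 0.25) and the RNA-binding protein gene Mex3a (0.71 ± 0.22) completed the higher genes together with Ifi44l and Cyp2c38, which are described with their pathways. Dim probe sets went the other way for Nes (-2.59 ± 0.78, without overlap), Sh2b1 (-1.45 ± 1.24) and Mex3a (-1.13 ± 0.92).

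The 15 genes of smallest p with insulin lower differed by 0.52 to 1.12 in size, again without passing the threshold. Plekhg3 stood at 8.10, 8.07 and 8.05 on the untreated arrays and 7.43, 6.84 and 6.58 on the insulin arrays, a difference of -1.12 ± 0.25 (95% interval -1.70 to -0.54, limma adjusted p 0.812). The 3 untreated arrays lay close together, and the insulin arrays were lower and more spread. A dim second probe set gave 0.41 ± 1.06. Tlcd2, a membrane protein linked to lipid composition, stood at 12.10, 12.03 and 12.39 on the untreated arrays and 11.36, 11.39 and 11.23 on the insulin arrays, a difference of -0.85 ± 0.20. Its groups lay far apart relative to their spread, and BI arrays, at 11.43, 11.96 and 11.61, lay between them. Marchf3, a membrane-bound ubiquitin ligase, stood at 7.85, 7.86 and 7.81 on the untreated arrays and 7.0, 6.72 and 7.30 on the insulin arrays. Its difference was -0.83 ± 0.21, and its dimmer probe sets gave -0.52 ± 0.40 and -0.40 ± 0.75. Otud1, a deubiquitinase, stood at 8.04, 8.21 and 8.46 on the untreated arrays and 7.34, 7.68 and 7.64 on the insulin arrays, a difference of -0.68 ± 0.19. Rin3, which activates the endosomal GTPase Rab5, had a difference of -0.75 ± 0.21, and Wdr91, an endosomal protein of the Rab7 pathway, one of -0.79 ± 0.23 on its brightest probe set, with -0.27 ± 0.21 and 0.68 ± 0.36 on the others. Slc2a9, the urate transporter GLUT9, stood at 9.37, 9.44 and 9.43 on the untreated arrays and 8.99, 8.77 and 8.62 on the insulin arrays. All insulin arrays were lower, by -0.62 ± 0.19 on average, while a second and dimmer probe set gave 0.98 ± 0.93.

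Gas1, a membrane protein that arrests growth and binds hedgehog ligands, stood at 9.40, 9.77 and 10.13 on the untreated arrays and 8.65, 9.23 and 8.19 on the insulin arrays, a difference of -1.08 ± 0.36. The lowest untreated and highest insulin arrays were close, and its other bright probe set gave -0.29 ± 0.28. Tnfaip2, a transcript induced by tumour necrosis factor, had a difference of -0.60 ± 0.19, with -0.69 ± 0.29 and no overlap on a second probe set. A2ml1, a protease inhibitor of the α2-macroglobulin family, stood at 12.42, 12.23 and 12.08 on the untreated arrays and 11.49, 11.72 and 11.72 on the insulin arrays. Its difference was -0.60 ± 0.18, without overlap. The proton pump subunit gene Atp4a (-0.87 ± 0.26), the F-box gene Fbxl6 (-0.72 ± 0.22), the sperm flagellar gene Ropn1l (-0.82 ± 0.26), the zinc finger gene Zfp467 (-0.63 ± 0.20) and Gpatch8 (-0.52 ± 0.17) made up the rest. For Gpatch8 the other probe sets gave 0.00 ± 0.38 and -0.05 ± 0.24.

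Other probe sets of the same gene read the same RNA on the same arrays, so their agreement bears on the probes and not on the animals. Of the 35 other probe sets of the 30 genes, at any level, 25 had the sign of the brightest one and 10 did not. Over genes with a mean of 7 or more, 3633 of 5994 other bright probe sets (60.6%) had the sign of the brightest one. The share was 217 of 309 (70.2%) for genes whose insulin arrays were all higher and 147 of 188 (78.2%) for those all lower. The direct comparison of the insulin with the BI arrays had an unadjusted p under 0.05 for 4 of the 15 higher and 7 of the 15 lower genes, against 1.26% of all genes of that level, with none past the adjusted threshold. The 30 genes were chosen for extreme values on these same insulin arrays, so nothing is read from that count.

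**Figure D2:**
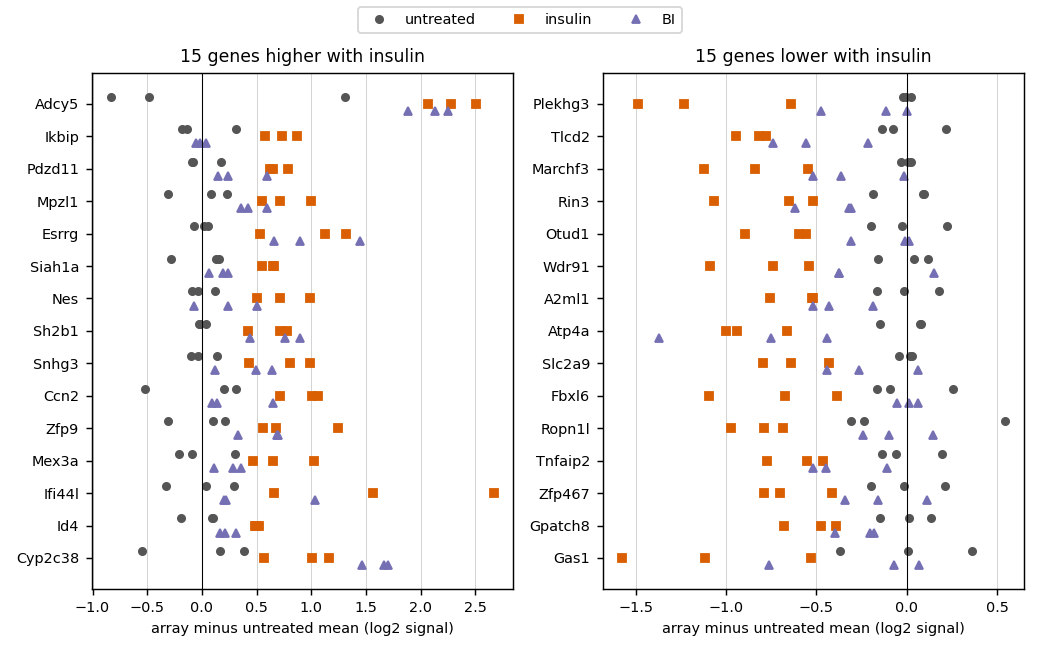
Level of the 15 genes with insulin higher (left) and the 15 with insulin lower (right), one row per gene, as the log2 level on each array minus the gene's mean over the 3 untreated arrays. Points are single arrays of the untreated, insulin and BI groups; the insulin points of every gene lie wholly on one side of its untreated points, which the choice of these genes fixed, and the BI points are shown beside them.

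The proximal insulin pathway was close to level between the groups. Of 22 genes from the insulin receptor to AKT with a mean of 7 or more, 12 were higher and 10 lower, 2 did not overlap in the higher (5.17% of all genes) and 1 in the lower direction (3.38% of all genes), and the median difference was 0.02, against 0.01 over all genes of that level. Insr, the receptor itself, stood at 11.77, 11.59 and 11.41 on the untreated arrays and 11.27, 11.42 and 11.46 on the insulin arrays, a difference of -0.21 ± 0.16 (95% interval -0.59 to 0.17). Irs1, the adaptor, stood at 10.55, 10.42 and 11.03 on the untreated arrays and 10.47, 10.29 and 10.19 on the insulin arrays, a difference of -0.35 ± 0.26, and only untreated replicate 3 stood clearly apart. Irs2, the adaptor whose transcription FOXO1 drives in liver, stood at 6.12, 6.93 and 7.03 on the untreated arrays and 5.46, 6.44 and 7.41 on the insulin arrays. Its insulin arrays spanned more than the untreated ones, and the difference, -0.25 ± 0.50, turned to 0.23 without insulin replicate 1. Pik3r1, a regulatory subunit of PI3-kinase, had a difference of -0.02 ± 0.19, which took the other sign without insulin replicate 3 or untreated replicate 2 or 3. Its other bright probe sets gave 0.16, 0.08 and -0.15. Pik3r2, a second regulatory subunit, stood at 6.91, 7.50 and 7.80 on the untreated arrays and 8.42, 7.98 and 8.01 on the insulin arrays, a difference of 0.74 ± 0.33 without overlap. Akt1 stood at 9.02, 8.85 and 8.38 on the untreated arrays and 8.01, 8.47 and 8.14 on the insulin arrays. Its difference was -0.55 ± 0.22, with an unadjusted p under 0.05 in the limma fit and 1 pair of arrays overlapping. A second bright Akt1 probe set gave -0.01. Akt2, the main AKT of liver, was at 0.04 ± 0.17, a difference whose sign turned with equal array medians and without insulin replicate 1. Its other bright probe sets gave -0.24 and 0.10.

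In the FOXO, GSK3 and mTOR branches 8 of 13 genes were higher and the median difference was 0.07, and -0.03 without insulin replicate 1 or untreated replicate 2. Gsk3a, a kinase that restrains glycogen synthesis, stood at 9.62, 9.65 and 9.92 on the untreated arrays and 10.28, 9.96 and 10.03 on the insulin arrays, a difference of 0.36 ± 0.17 without overlap. Foxo1 was at 0.19 ± 0.19, the mTORC2 subunit gene Rictor at 0.20 ± 0.16 without overlap, and Rheb, the GTPase that activates mTORC1, at 0.21 ± 0.17. Other bright Foxo1 probe sets gave -0.0058 and 0.15.

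FOXO1 targets and genes that insulin represses, listed together, were divided: 9 of 18 were higher, 9 lower, and the median was -0.01. Pck1, the gluconeogenic enzyme PEPCK, stood at 14.34, 13.88 and 14.01 on the untreated arrays and 14.40, 14.24 and 14.30 on the insulin arrays, a difference of 0.24 ± 0.18 (95% interval -0.19 to 0.66). The insulin arrays were not lower. G6pc, which releases glucose from glucose 6-phosphate, stood at 13.05, 12.79 and 14.04 on the untreated arrays and 13.90, 13.33 and 13.05 on the insulin arrays, a difference of 0.14 ± 0.47 (95% interval -0.97 to 1.24). Untreated replicate 3 was the highest of the 6 arrays, and the sign turned without insulin replicate 1 or untreated replicate 2. Igfbp1, a secreted IGF-binding protein whose transcript insulin quickly lowers, stood at 11.96, 11.68 and 11.80 on the untreated arrays and 11.54, 12.02 and 12.68 on the insulin arrays. Its difference of 0.26 ± 0.47 had an interval of -0.83 to 1.36 and turned sign without insulin replicate 3. Ppargc1a, the coactivator PGC-1α that works with FOXO1 on the gluconeogenic genes, stood at 8.65, 8.70 and 8.80 on the untreated arrays and 7.97, 8.47 and 8.0 on the insulin arrays. All 3 insulin arrays were lower, by -0.57 ± 0.20 on average (95% interval -1.03 to -0.12, limma adjusted p 1.0), and the BI arrays, at 8.12, 8.00 and 8.32, lay in the range of the insulin arrays. Other bright Ppargc1a probe sets gave -0.64 without overlap, and -0.43, -0.26 and -0.34 with overlap. The 12 gluconeogenesis genes, a list that shares members with the FOXO1 one, had a median of 0.00, with 6 higher and 6 lower; pyruvate carboxylase, Pcx, was at -0.21 ± 0.19.

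Fat synthesis was lower in 19 of 26 genes, with a median of -0.16. Of the 19, 0 were without overlap, against 3.38% of all genes in that direction. Srebf1, whose SREBP-1c form carries the lipogenic response to insulin, lay on the other side of 0: it stood at 13.52, 13.53 and 13.42 on the untreated arrays and 13.89, 13.76 and 13.68 on the insulin arrays, a difference of 0.29 ± 0.16 (95% interval -0.09 to 0.67), and all insulin arrays lay above all untreated arrays. Its target Fasn, fatty acid synthase, stood at 12.05, 13.24 and 14.31 on the untreated arrays and 13.57, 12.74 and 12.21 on the insulin arrays, a difference of -0.36 ± 0.58 (95% interval -1.71 to 0.99). The untreated arrays alone spanned more than 2 units, from replicate 1, the lowest of the 6 arrays, to replicate 3, the highest, and without replicate 3 the difference was 0.19. Acacb, the acetyl-CoA carboxylase of mitochondria, stood at 7.50, 9.15 and 10.60 on the untreated arrays and 8.32, 7.18 and 7.97 on the insulin arrays, a difference of -1.26 ± 0.71 with untreated replicate 3 again the highest array. Acaca, its cytosolic form, was at 0.08 ± 0.27, Scd1, stearoyl-CoA desaturase, at 0.06 ± 0.17, and the desaturase gene Fads1 at -0.50 ± 0.34. A second bright Fads1 probe set gave 0.05. The median of the list was -0.31 without untreated replicate 1 and 0.00 without untreated replicate 3, when 13 of the 26 genes were higher.

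In glycolysis and glycogen metabolism 11 of 16 genes were higher, with a median of 0.06. The median was -0.03 without untreated replicate 1, when 7 of 16 were higher, and 0.23 without untreated replicate 3. Pfkfb3, which makes the activator of phosphofructokinase, stood at 6.67, 6.07 and 7.29 on the untreated arrays and 8.93, 8.14 and 7.06 on the insulin arrays, a difference of 1.37 ± 0.59 (95% interval -0.00 to 2.74). Insulin replicates 1 and 2 were above every untreated array and replicate 3 was not. Slc2a2, the hepatic glucose transporter GLUT2, was at 0.14 ± 0.32, glycogen synthase, Gys2, at 0.06 ± 0.22, the branching enzyme Gbe1 at 0.22 ± 0.22, and ketohexokinase, Khk, at 0.20 ± 0.19. The differences of Slc2a2 and Gys2 turned sign without untreated replicate 2, and that of Gys2 also without insulin replicate 2.

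**Figure D3:**
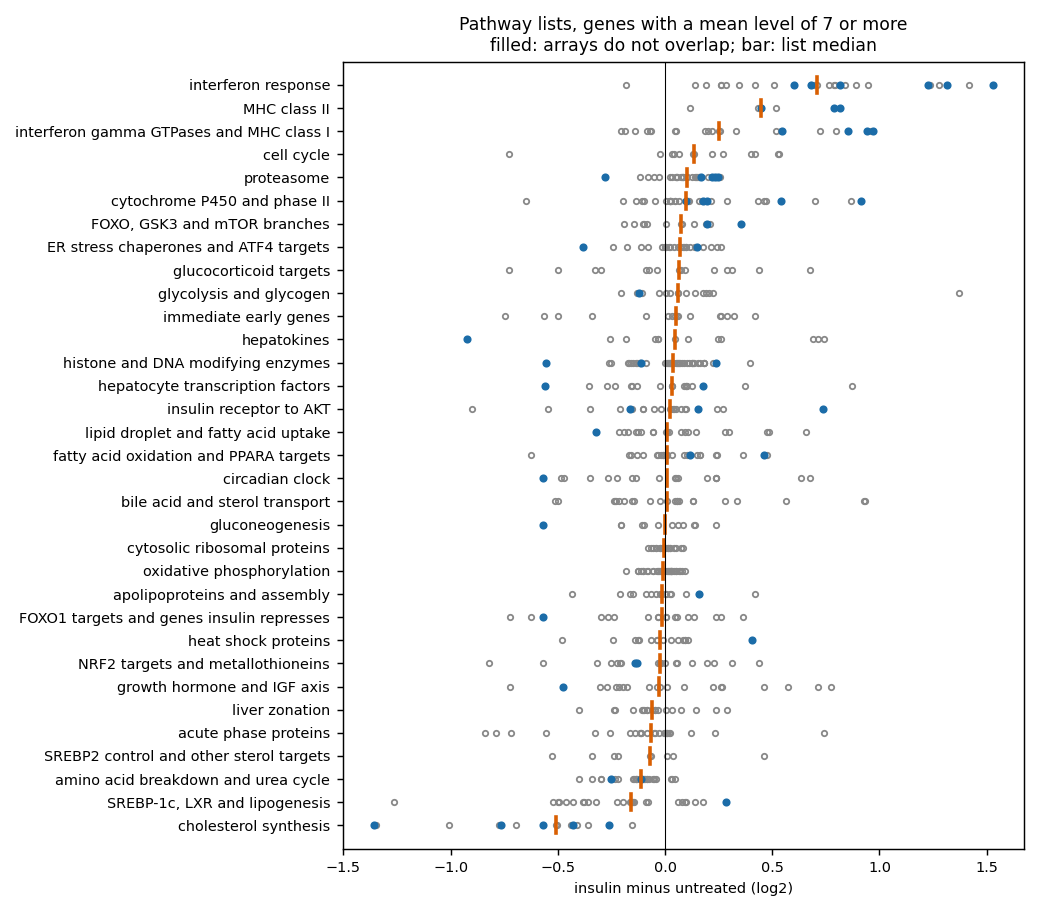
Differences between insulin and untreated liver (log2, x axis) for the members of each gene list with a mean of 7 or more, one row per list; points are genes, filled points are genes whose insulin and untreated arrays do not overlap, and the bar marks the list's median. The interferon and MHC class II rows lie mostly to the right, the cholesterol synthesis row wholly to the left, and most other rows straddle 0.

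Cholesterol synthesis had the lowest median of the 33 pathway lists. All 15 enzymes with a mean of 7 or more were lower with insulin (median -0.51, range -1.36 to -0.15), 5 did not overlap, against 3.38% of all genes in that direction, and 1 had an unadjusted p under 0.05 (0.471% of all genes); none passed the limma threshold. The list was chosen with this direction known. Msmo1, which removes methyl groups from sterol intermediates, stood at 9.31, 10.24 and 11.22 on the untreated arrays and 9.25, 8.68 and 8.76 on the insulin arrays, a difference of -1.36 ± 0.46 (95% interval -2.43 to -0.29). The insulin arrays lay together below the untreated ones, which differed by almost 2 units among themselves. Hmgcs1, the HMG-CoA synthase that feeds the pathway, stood at 11.74, 11.89 and 12.65 on the untreated arrays and 11.47, 11.53 and 11.58 on the insulin arrays, a difference of -0.57 ± 0.39. Its BI arrays, at 12.84, 11.71 and 12.99, were scattered above the insulin arrays, and the direct difference insulin minus BI was -0.99 ± 0.39. Dhcr7, the reductase that yields cholesterol itself, stood at 10.37, 10.41 and 11.62 on the untreated arrays and 10.08, 9.94 and 10.09 on the insulin arrays, a difference of -0.76 ± 0.34. Fdft1, squalene synthase, was at -0.43 ± 0.26, and Mvk, mevalonate kinase, at -0.26 ± 0.20, both also without overlap. Fdps, which makes farnesyl diphosphate, stood at 9.23, 11.20 and 12.29 on the untreated arrays and 10.36, 9.20 and 9.12 on the insulin arrays, and Cyp51, the lanosterol demethylase, at 8.11, 9.34 and 10.39 on the untreated arrays and 8.48, 7.99 and 8.35 on the insulin arrays. In both, untreated replicate 1 lay among the insulin arrays and untreated replicate 3 was the highest.

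The list as a whole showed the same. The mean of the 15 genes, each centred on its mean over the 9 arrays, was -0.30, 0.33 and 1.12 on the untreated arrays and -0.07, -0.40 and -0.29 on the insulin arrays, so the groups overlapped. The BI arrays were at -0.07, -0.10 and -0.21. Without untreated replicate 3 the median difference was -0.18, and without untreated replicate 1 it was -0.74; 0 of the 15 genes were higher in either case. Untreated replicate 3 also had the largest Gapdh 3' minus 5' difference, and the part of RNA quality in this result was not tested. Of 9 genes of SREBP2 control and other sterol targets 6 were lower and 0 were without overlap in either direction, against 8.55% of all genes. Their median was -0.07, and -0.25 to -0.11 in the fits that left out 1 of the 6 arrays; its distance from that of the enzymes was not tested. Srebf2, the factor that drives the enzymes, was at 0.04 ± 0.32, Mylip, which degrades the LDL receptor, at 0.46 ± 0.27, and Scap, the SREBP escort protein, at -0.24 ± 0.20. A second bright Srebf2 probe set gave -0.26. Insig1, a sterol sensor partner and SREBP target, stood at 11.85, 12.41 and 12.91 on the untreated arrays and 12.57, 11.56 and 11.46 on the insulin arrays, a difference of -0.53 ± 0.40, with untreated replicate 3 the highest array as in the enzymes.

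Because the enzymes lay lower together, their start regions were searched for the core letters of the sterol regulatory element, TCACNCCAC, on both strands. The RefSeq windows (GRCm38.p6) run from 250 bases before to 50 bases after a gene's start. A match was found for 1 of the 14 measured cholesterol genes with a window, Hmgcs1 (1 of 17 windows, 5.88%), and in 408 of all 32851 windows (1.24%). The Hmgcs1 window, chr13:119690101-119690400 on the + strand, is shown because its gene was among the 5 without overlap; capitals mark the match, which begins 137 bases before the start.
Hmgcs1: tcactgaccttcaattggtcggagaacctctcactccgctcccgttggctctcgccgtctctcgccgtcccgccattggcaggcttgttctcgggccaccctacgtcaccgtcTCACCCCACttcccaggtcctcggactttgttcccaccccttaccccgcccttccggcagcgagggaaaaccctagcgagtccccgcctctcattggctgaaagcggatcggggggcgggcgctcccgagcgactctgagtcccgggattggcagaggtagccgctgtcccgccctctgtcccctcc
A match of letters is a description of the sequence and says nothing about binding in these livers.

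Interferon-induced transcripts had the highest median of the 33 pathway lists. Of 27 with a mean of 7 or more, 26 were higher with insulin (median 0.71, range -0.18 to 1.53), 6 did not overlap, against 5.17% of all genes in that direction, and 1 had an unadjusted p under 0.05 (0.816% of all genes); none passed the limma threshold. This list too was chosen with its direction known. Ifit2, an antiviral protein that binds RNA, stood at 6.62, 7.22 and 7.10 on the untreated arrays and 7.58, 9.48 and 8.47 on the insulin arrays, a difference of 1.53 ± 0.66 (95% interval -0.02 to 3.08). Insulin replicate 2 was the highest and replicate 1 close to the untreated arrays. Irf7, the transcription factor that amplifies interferon production, stood at 8.58, 7.43 and 8.51 on the untreated arrays and 9.07, 10.02 and 9.10 on the insulin arrays, a difference of 1.23 ± 0.51. Rtp4, a receptor chaperone induced by interferon, stood at 9.91, 10.05 and 9.89 on the untreated arrays and 10.31, 11.95 and 11.54 on the insulin arrays, a difference of 1.31 ± 0.59. Insulin replicate 1 was the lowest insulin array for both. Ifi44l, an interferon-induced protein and one of the 30 genes above, stood at 7.19, 7.56 and 7.81 on the untreated arrays and 8.18, 10.19 and 9.09 on the insulin arrays, a difference of 1.63 ± 0.51, with 1.34 ± 0.47 on another probe set. It is not on the list. Ifit1 and Ifit3, relatives of Ifit2, overlapped between the groups: Ifit1 stood at 7.79, 6.90 and 7.54 on the untreated arrays and 7.57, 10.12 and 8.79 on the insulin arrays, a difference of 1.42 ± 0.88. Ifit3 stood at 7.87, 7.80 and 7.48 on the untreated arrays and 7.80, 9.99 and 9.20 on the insulin arrays, a difference of 1.28 ± 0.64. In both, replicate 1 of the insulin group was inside the untreated range. Oas1a, an enzyme that makes the 2'-5' oligoadenylate signal of antiviral defence, stood at 9.0, 9.06 and 9.13 on the untreated arrays and 9.20, 10.60 and 9.84 on the insulin arrays, a difference of 0.81 ± 0.47 without overlap. Stat2, a subunit of the interferon-activated transcription factor, was the 1 lower gene, at -0.18 ± 0.39.

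The arrays of the insulin group were not alike in this list. The centred mean of the 27 genes was -0.17, -0.23 and -0.35 on the untreated arrays and -0.32, 1.14 and 0.58 on the insulin arrays, so insulin replicate 1 was at the untreated level and the groups overlapped. The BI arrays were at 0.69, -0.43 and -0.91, further apart than the untreated arrays. The median difference was 1.21 without insulin replicate 1, with 27 of 27 genes higher, and 0.40 without insulin replicate 2, with 23 of 27 higher. The direct difference insulin minus BI had a median of 0.62. Kupffer cell and macrophage markers, 12 of 16 of them higher with a median of 0.28, are given with the other cell types. Their part in this result was not tested.

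The start regions of these genes were searched for the core of the interferon-stimulated response element, GAAA, any 2 bases and GAAA again, on both strands. A match was found for 11 of the 21 measured genes with a RefSeq window (12 of 26 windows, 46.2%) and in 1131 of all 32851 windows (3.44%). The windows of Ifit1 (chr19:34640639-34640938, + strand), Ifit3 (chr19:34583279-34583578, + strand) and Oas1a (chr5:120907476-120907775, - strand) are shown because each holds 2 matches and its values are given above. The sequences run 5' to 3' along the gene in GRCm38.p6, and capitals mark the matches, which show TTTC in place of GAAA where the motif lies on the other strand.
Ifit1: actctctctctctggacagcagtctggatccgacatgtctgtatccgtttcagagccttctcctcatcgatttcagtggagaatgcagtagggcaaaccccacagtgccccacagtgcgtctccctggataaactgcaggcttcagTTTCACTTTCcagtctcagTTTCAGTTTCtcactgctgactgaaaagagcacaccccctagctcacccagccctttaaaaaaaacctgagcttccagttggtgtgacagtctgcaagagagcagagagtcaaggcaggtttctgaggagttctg
Ifit3: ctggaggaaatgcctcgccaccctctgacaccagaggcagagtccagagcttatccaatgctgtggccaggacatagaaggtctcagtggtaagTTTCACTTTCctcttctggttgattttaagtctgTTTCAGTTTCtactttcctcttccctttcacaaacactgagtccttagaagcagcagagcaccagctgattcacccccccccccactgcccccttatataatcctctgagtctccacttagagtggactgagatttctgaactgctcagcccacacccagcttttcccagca
Oas1a: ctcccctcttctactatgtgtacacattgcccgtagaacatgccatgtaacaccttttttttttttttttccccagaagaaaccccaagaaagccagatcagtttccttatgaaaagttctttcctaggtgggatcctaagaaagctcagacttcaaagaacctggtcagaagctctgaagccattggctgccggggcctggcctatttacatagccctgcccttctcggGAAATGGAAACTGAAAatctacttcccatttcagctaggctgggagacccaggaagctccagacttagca
In Ifit1 the matches begin 104 and 85 bases before the start, in Ifit3 156 and 122 bases and in Oas1a 20 and 14 bases, where they overlap each other. Genes of this list are known for such elements, so their share is background and not a finding on insulin.

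**Figure D4:**
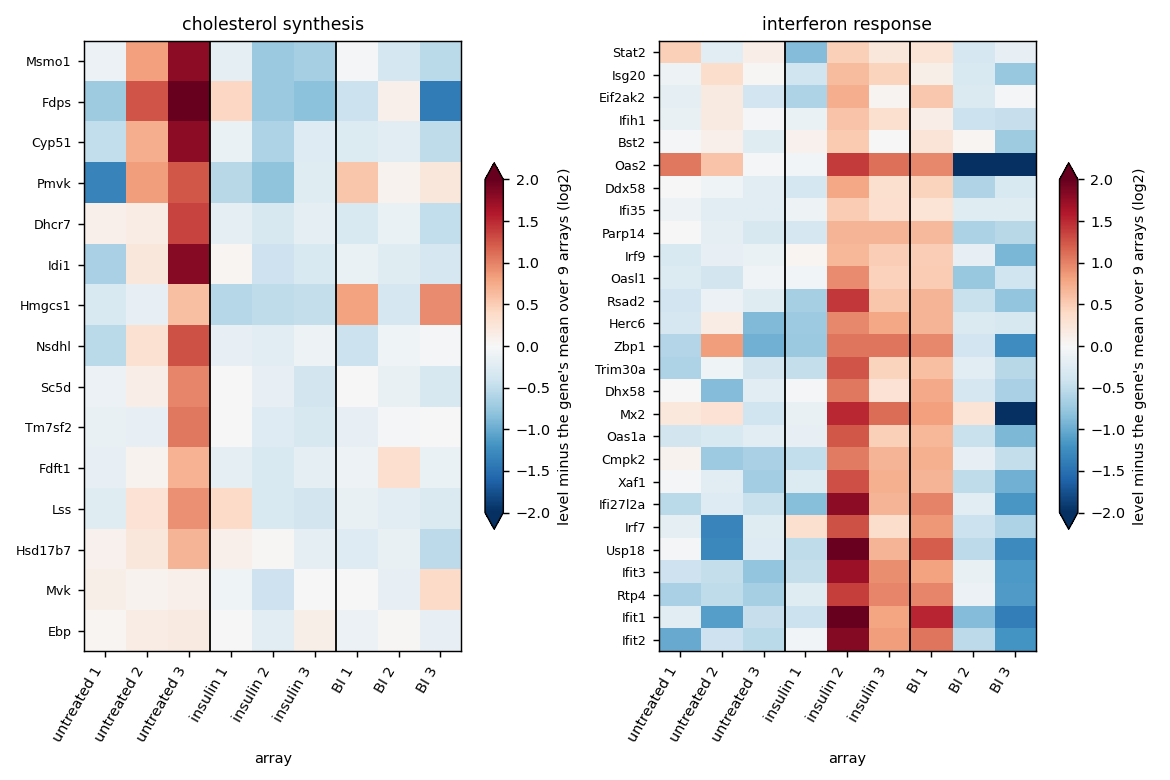
Level of the 15 genes of cholesterol synthesis (left) and the 27 of the interferon response (right) with a mean of 7 or more, one row per gene and one column per array, as the log2 level minus the gene's mean over the 9 arrays (red above, blue below). Untreated replicate 3 is red through the cholesterol panel, where the list stood at 1.12, and in the interferon panel insulin replicates 2 and 3 and BI replicate 1 are red while insulin replicate 1, at -0.32 over the list, is not.

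Genes that interferon γ induces and genes of antigen presentation followed in part. In the list of interferon γ GTPases and MHC class I, 17 of 23 genes were higher (median 0.25), 4 without overlap, against 5.17% of all genes. The median was 0.12 without untreated replicate 3, 0.16 without insulin replicate 2 and 0.38 without insulin replicate 1. Irgm2, an immunity-related GTPase that acts on pathogen vacuoles, stood at 11.15, 10.64 and 10.52 on the untreated arrays and 11.46, 11.83 and 11.93 on the insulin arrays, a difference of 0.97 ± 0.36 (95% interval 0.13 to 1.81). Igtp, of the same family, stood at 11.64, 11.50 and 11.27 on the untreated arrays and 11.93, 12.68 and 12.61 on the insulin arrays, a difference of 0.94 ± 0.32. In each, all insulin arrays were above all untreated arrays and insulin replicate 1 was the nearest. Gbp2, a guanylate-binding protein, was at 0.54 ± 0.21 without overlap and sat at the edge of the level threshold, with a mean of 7.0004. The chemokine gene Cxcl9 was at 0.85 ± 0.45 without overlap. The class I heavy chain genes were near level: H2-K1 was at -0.14 ± 0.16, H2-D1 at -0.06 ± 0.17, and the light chain B2m at 0.05 ± 0.15.

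MHC class II genes present antigen on macrophages, dendritic cells and B cells. All 7 with a mean of 7 or more were higher (median 0.45), 3 without overlap (5.17% of all genes in that direction) and 2 with an unadjusted p under 0.05 (0.816% of all genes). H2-Aa, a class II α chain, stood at 10.47, 10.41 and 10.54 on the untreated arrays and 11.02, 10.96 and 11.81 on the insulin arrays, a difference of 0.79 ± 0.26 (95% interval 0.17 to 1.40). The untreated arrays were close together and insulin replicate 3 was the highest. Other bright H2-Aa probe sets gave 0.80 and 0.38, both with overlap. H2-DMa, which loads peptides onto class II molecules, stood at 6.81, 7.14 and 6.34 on the untreated arrays and 7.28, 7.45 and 7.99 on the insulin arrays, a difference of 0.81 ± 0.29. Cd74, the invariant chain, was at 0.45 ± 0.22, without overlap. H2-Eb1 was at 0.45 ± 0.25 and H2-Ab1 at 0.52 ± 0.28, both with overlap. Class II genes are multigene families, and their probes can read more than 1 member. The centred mean was -0.30, -0.04 and -0.25 on the untreated and 0.15, 0.13 and 0.65 on the insulin arrays, without overlap, and -0.09, -0.17 and -0.07 on the BI arrays. The median difference ranged from 0.28 without insulin replicate 3 to 0.66 without untreated replicate 2, when 6 of the 7 were higher. Unlike the interferon list, insulin replicate 1 was above the untreated arrays here. In whole liver, more cells of a type and more RNA of a gene per cell cannot be told apart.

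**Figure D5:**
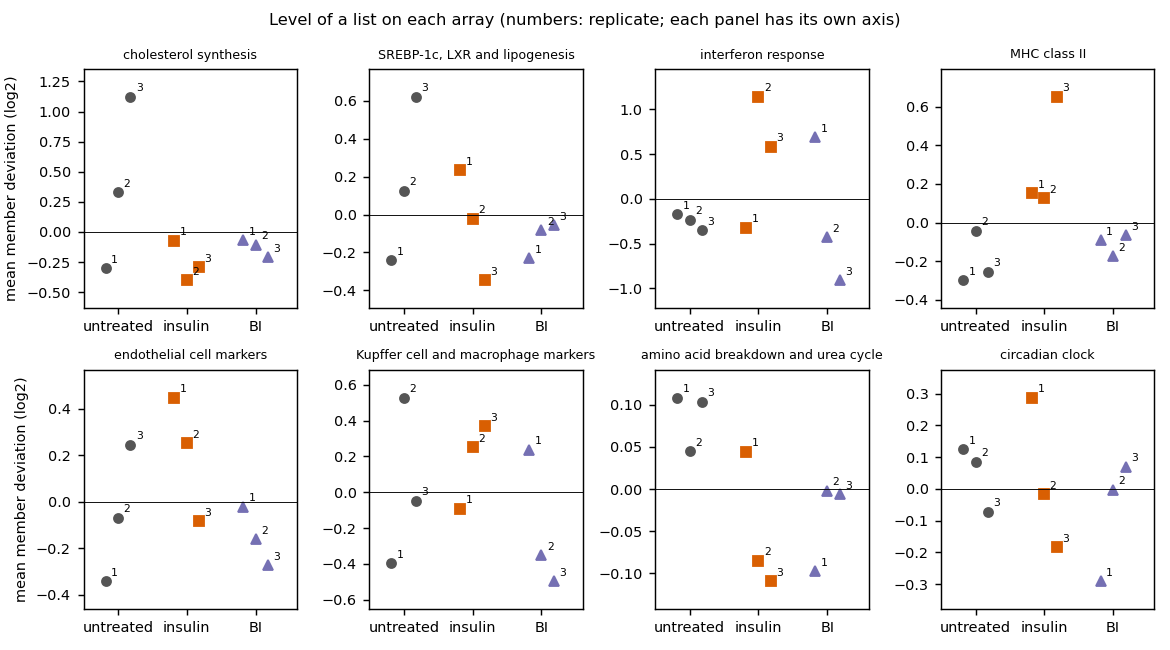
Centred mean of each of several gene lists (log2, y axis) on each array, grouped by treatment; points are single arrays. In cholesterol synthesis untreated replicate 3 stands alone at 1.12, in the interferon response insulin replicates 2 and 3 and BI replicate 1 lie high and insulin replicate 1 at -0.32, and in MHC class II the 3 insulin arrays lie above the 3 untreated arrays.

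Among other liver functions, amino acid breakdown and the urea cycle differed by small amounts: 24 of 27 genes were lower, with a median of -0.11 (-0.17 without insulin replicate 1) and 2 without overlap, against 3.38% of all genes. The centred mean was 0.11, 0.04 and 0.10 on the untreated and 0.04, -0.08 and -0.11 on the insulin arrays, where untreated replicate 2 and insulin replicate 1 were level. Fah, the last enzyme of tyrosine breakdown, stood at 14.35, 14.35 and 14.15 on the untreated arrays and 14.13, 13.94 and 14.01 on the insulin arrays, a difference of -0.25 ± 0.17, and Tat, which starts that pathway, was at -0.30 ± 0.19. Cytochrome P450 genes and genes of conjugating (phase II) enzymes were higher in 27 of 33 (median 0.10), 5 without overlap, against 5.17% of all genes. The median was 0.042 without untreated replicate 2 and 0.056 without insulin replicate 2, with 22 of 33 higher in each case. Cyp2c38 stood at 8.40, 7.69 and 8.62 on the untreated arrays and 9.24, 9.40 and 8.80 on the insulin arrays, a difference of 0.91 ± 0.28. The BI arrays, at 9.70, 9.90 and 9.94, were all above the insulin arrays, and insulin minus BI was -0.70 ± 0.28. Cyp2c39, its close relative, stood at 9.28, 9.57 and 9.78 on the untreated arrays and 10.12, 9.95 and 10.19 on the insulin arrays, a difference of 0.54 ± 0.21, also with higher BI arrays. Members of the Cyp2c family are so alike that their probe sets can share signal. With equal array medians the medians of these lists were -0.16 and 0.05.

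A median within 0.1 of 0 was found for 25 of the 33 pathway lists. In the fits that left out 1 of the 6 arrays the medians of these lists ran from -0.25 to 0.23, and 21 of the 25 took both signs. Fatty acid oxidation and PPARα targets had 14 of 25 genes higher and a median of 0.01. Ppara, the receptor, was at -0.13 ± 0.26, and Cpt1a, which admits fatty acids to mitochondria, stood at 12.39, 11.78 and 11.91 on the untreated arrays and 12.76, 12.52 and 11.88 on the insulin arrays, a difference of 0.36 ± 0.29. Other bright Cpt1a probe sets gave 0.07 and 0.03. Aldh3a2, a fatty aldehyde dehydrogenase, was at 0.46 ± 0.20 without overlap, with insulin minus BI at -0.40 ± 0.20. Lipid droplet and uptake genes had a median of 0.01, with Lpl, lipoprotein lipase, at 0.66 ± 0.48. Apolipoprotein genes had a median of -0.01. Apoa5, a regulator of plasma triglyceride, was at 0.42 ± 0.21 and Abca1, the cholesterol exporter, at 0.16 ± 0.15 without overlap. A second bright Abca1 probe set gave -0.0033. In bile acid and sterol transport (median 0.01) the paired sterol exporters stood out by size but not by separation. Abcg5 stood at 12.70, 12.12 and 10.73 on the untreated arrays and 13.08, 12.59 and 12.68 on the insulin arrays, a difference of 0.93 ± 0.48, and Abcg8 at 10.81, 9.15 and 9.21 on the untreated arrays and 10.81, 10.56 and 10.57 on the insulin arrays, a difference of 0.93 ± 0.44. In both, untreated replicate 1 lay among the insulin arrays. Nr0b2, the bile acid-induced repressor SHP, was at 0.56 ± 0.35. Of NRF2 targets and metallothioneins 14 of 22 were lower (median -0.02). Gstm2, a glutathione transferase, was at -0.82 ± 0.29 and Hmox1, haem oxygenase, at -0.57 ± 0.45, both with overlap.

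Circadian clock genes had a median of 0.01, with 9 of 18 higher, but a wide spread within each group: Dbp, a rhythmic transcription factor, stood at 10.41, 8.98 and 7.31 on the untreated arrays and 11.77, 9.52 and 7.32 on the insulin arrays, and Per2, a clock repressor, at 8.61, 9.48 and 9.33 on the untreated arrays and 9.62, 8.74 and 7.99 on the insulin arrays. For Dbp both groups ran over several units, and its difference of 0.63 ± 1.26 had an interval of -2.31 to 3.57. Hlf, of the same family as Dbp, stood at 9.39, 9.58 and 9.46 on the untreated arrays and 8.92, 9.21 and 8.60 on the insulin arrays, a difference of -0.57 ± 0.20 without overlap. A second bright Hlf probe set gave -0.22, with overlap. Arntl was at -0.22 ± 0.42, Nr1d1 at 0.39 ± 1.16 and Cry1 at -0.49 ± 0.42. Immediate early genes had a median of 0.05, with Junb at -0.75 ± 0.43 and Dusp6, a phosphatase induced by ERK signalling, at 0.42 ± 0.40. Glucocorticoid targets had a median of 0.06, with Per1 at 0.68 ± 0.67. The growth hormone and IGF axis had a median of -0.03: Igf1 was at -0.20 ± 0.18 and Socs2, a growth hormone target, at 0.78 ± 0.90. Moxd1, a monooxygenase-like gene, stood at 13.45, 13.38 and 13.55 on the untreated arrays and 13.06, 12.71 and 13.18 on the insulin arrays, a difference of -0.48 ± 0.22 without overlap, and Serpina12, the adipokine vaspin, was at 0.71 ± 0.42. Among hepatokines (median 0.05), Enho, which encodes adropin, stood at 9.38, 9.76 and 9.31 on the untreated arrays and 8.76, 7.90 and 9.02 on the insulin arrays, a difference of -0.92 ± 0.35 without overlap (95% interval -1.73 to -0.12). Its BI arrays were lower still, at 7.90, 7.69 and 7.11.

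Stress and inflammation lists were near level. ER stress genes had a median of 0.07, with Asns, asparagine synthetase and an ATF4 target, at -0.38 ± 0.17 without overlap. Heat shock genes had a median of -0.02, with Hspb1 at 0.41 ± 0.21 without overlap. Acute phase genes had a median of -0.07, with 16 of 24 lower and 0 without overlap in either direction, against 8.55% of all genes. Lcn2, lipocalin 2, was at -0.55 ± 0.39, Orm2, an acid glycoprotein, at -0.72 ± 0.58, and their transcription factor Stat3 at -0.32 ± 0.25.

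The 36 genes of oxidative phosphorylation had a median of -0.01 and a range of -0.18 to 0.09, and the 21 cytosolic ribosomal protein genes a median of -0.01 and a range of -0.08 to 0.09. Atp5b, a subunit of ATP synthase, was at -0.13 ± 0.15 and Rps4x at -0.08 ± 0.14. Proteasome genes were higher in 26 of 31 (median 0.10), 4 without overlap (5.17% of all genes), such as Psma5 at 0.25 ± 0.16, and 1 lower without overlap (3.38% of all genes), Psmb7 at -0.28 ± 0.16. The proteasome median was 0.05 with equal array medians, 0.063 without insulin replicate 2, 0.17 without untreated replicate 1, and 0.044 without untreated replicate 3, when 19 of 31 were higher. Cell cycle genes had 11 of 13 higher (median 0.13), with 0 without overlap in either direction, against 8.55% of all genes. Their median was 0.036 without untreated replicate 1 and 0.040 without insulin replicate 2, with 8 of 13 higher in each case, 0.29 without insulin replicate 3 and 0.31 without untreated replicate 2. Among them were the replication licensing genes Mcm4 and Mcm2 at 0.53 ± 0.31 and 0.53 ± 0.38 and the cycle inhibitor Cdkn1a at -0.73 ± 0.49. Second bright probe sets gave 0.64 for Mcm4, -0.12 for Mcm2 and -0.15 for Cdkn1a. Of 44 enzymes that modify histones or DNA 30 were higher (median 0.04). Without overlap were 1 in the higher direction (5.17% of all genes) and 2 in the lower (3.38% of all genes). Hdac1, a class I deacetylase, stood at 9.70, 9.78 and 9.65 on the untreated arrays and 9.97, 9.90 and 9.98 on the insulin arrays, a difference of 0.24 ± 0.15 without overlap; Hdac6, which acts on tubulin, was at -0.56 ± 0.26 and Hdac3 at -0.11 ± 0.15, both lower without overlap. Zonation genes had a median of -0.06, with Cyp2f2, a periportal marker, at 0.29 ± 0.32. Hepatocyte transcription factors had a median of 0.03. Among these Tcf7l2, an effector of WNT signalling and a diabetes susceptibility gene, stood at 9.83, 9.68 and 10.04 on the untreated arrays and 9.06, 9.55 and 9.26 on the insulin arrays, a difference of -0.56 ± 0.22 (95% interval -1.07 to -0.04) without overlap. A second bright Tcf7l2 probe set gave -0.16.

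Markers of cell types gave the following. The 7 hepatocyte markers had a median of -0.02 (range -0.18 to 0.03). Of Kupffer cell and macrophage markers 12 of 16 were higher and 4 lower (median 0.28, range -0.88 to 0.46), so the member furthest from 0 was a lower one. Without overlap was 1, in the higher direction, against 5.17% of all genes. Adgre1, the F4/80 antigen, stood at 8.85, 9.14 and 9.28 on the untreated arrays and 9.55, 9.51 and 9.56 on the insulin arrays, a difference of 0.46 ± 0.20 without overlap, while Clec4f and Vsig4, markers of resident Kupffer cells, were at 0.16 ± 0.29 and -0.05 ± 0.35. The summed signal of the 19 measured macrophage markers lay between 14.26 and 15.19 (log2) in the untreated and 14.54 and 15.03 in the insulin group. The median difference ranged from 0.07 without untreated replicate 1 to 0.41 without insulin replicate 1. Endothelial markers were higher in 15 of 18 (median 0.26, and 0.12 without untreated replicate 1, when 13 of 18 were higher). Of them 1 was without overlap, against 5.17% of all genes in that direction. Emcn, endomucin, stood at 6.47, 6.90 and 7.13 on the untreated arrays and 7.63, 7.33 and 7.26 on the insulin arrays, a difference of 0.58 ± 0.32 without overlap, and Lyve1, of sinusoidal and lymphatic endothelium, at 6.70, 7.33 and 8.82 on the untreated arrays and 9.36, 8.70 and 7.66 on the insulin arrays, a difference of 0.96 ± 0.60. The scavenger receptor gene Stab2 was at -0.05 ± 0.19, so the members of the list differed. The summed endothelial signal overlapped too, with 13.42 to 13.91 in the untreated and 13.69 to 14.09 in the insulin group. Stellate cell and matrix genes had a median of 0.01 over 16, with -0.10 without untreated replicate 1 and 0.31 without untreated replicate 3. Only 1 of 20 T and NK cell markers had a mean of 7 or more, Zap70 at 0.48 ± 0.24. Of 11 measured neutrophil markers only 2 had a mean of 7 or more, and the centred mean of these was highest on untreated replicate 2, at 2.06. There S100a8 was at 12.74, against 9.97 and 11.25 on the others of its group. Over all 11 markers, most of them dim, the median level was 6.77 on untreated replicate 2 and also 6.77 on insulin replicate 3. No measured marker of any of the 14 cell type lists was at 0 on any array.

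The smallest p-values belonged to dim signals. Of the 100 genes of smallest p, 95 had a mean under 7, where the deposited values reach down to a floor of 0. BC048507 stood at 1.12, 1.47 and 0.79 on the untreated arrays and 3.64, 4.39 and 4.27 on the insulin arrays, a difference of 2.97 ± 0.28 (limma adjusted p 0.171). 4930412O13Rik stood at 2.42, 2.74 and 2.72 on the untreated arrays and 5.31, 5.74 and 4.80 on the insulin arrays, a difference of 2.65 ± 0.30 (limma adjusted p 0.291). Eomes, a T-box factor of cytotoxic lymphocytes, stood at 2.84, 2.79 and 2.98 on the untreated arrays and 5.15, 5.62 and 5.82 on the insulin arrays, a difference of 2.65 ± 0.25 (limma adjusted p 0.171), and insulin minus BI was 1.85 ± 0.25. A second Eomes probe set gave 0.66 ± 0.72. Of the other 19 measured T and NK cell markers 13 were higher (median 0.47), but all of these 19 except Zap70 had a mean under 7. The summed signal of the 20 markers was 10.23 to 10.33 (log2) on the untreated arrays and 10.55 to 10.80 on the insulin arrays. Without Zap70, the brightest of them, it was 9.43 to 9.66 and 9.58 to 10.06, with overlap. Cd3e, a subunit of the T cell receptor complex, stood at 2.99, 4.62 and 3.21 on the untreated arrays and 3.81, 3.63 and 4.79 on the insulin arrays, and Nkg7, of cytotoxic granules, at 6.32, 5.47 and 4.02 on the untreated arrays and 5.59, 5.42 and 5.85 on the insulin arrays, both with overlap. The part of such cells in the Eomes value was not tested. Cabp1, a calcium-binding protein of neurons, stood at 4.85, 3.41 and 4.25 on the untreated arrays and 0.99, 1.43 and 0.64 on the insulin arrays, a difference of -3.15 ± 0.38. Nxph1, a secreted ligand of neurexins, had a difference of -3.0 ± 0.48 and 1.38 ± 0.68, without overlap, on another probe set. 1110015O18Rik stood at 3.51, 4.09 and 3.68 on the untreated arrays and 0.00, 0.41 and 0.00 on the insulin arrays, at or near the floor on the insulin arrays, so no fold is given. Its adjusted p in the limma fit was 0.291.

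The insulin arrays were also set directly against the BI arrays, which hold the same total dose of insulin. limma called 0 of 45037 probe sets (0%), with a smallest adjusted p of 0.0643 and 1821 at an unadjusted p under 0.05 (4.04%). Among the 30 genes above, those with the largest direct differences were Ifi44l (1.15 ± 0.51), Plekhg3 (-0.92 ± 0.25) and Gas1 (-0.82 ± 0.36). Leaving out insulin replicate 1 or 2 gave 1 called probe set each, both dim: Cfap20dc, with a mean of 5.04 (adjusted p 0.0467), and Slc6a14, with a mean of 1.51 (adjusted p 0.0162); these were named after their values were seen. Ranges of the insulin and BI arrays that include each other do not show that the preparations act alike.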

How the data were processed

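Liver RNA was hybridised to 9 one-colour Affymetrix arrays, 3 per group, with groups and replicate numbers taken from the labels. Per the labels' protocols, extraction used TRIzol and RNeasy columns, and biotin-labelled cRNA was made with a 3' IVT kit. The authors deposited 1 log2 signal for each probe set and array; which summarization and normalization software made it was not given in the sources used here. Each array had 152 to 247 probe sets at exactly 0 and a trimmed mean linear signal of 500.004, so the arrays were taken as already scaled. Detection calls and background readings were not used, and precision was limited by having 3 arrays in each group. The table had 0 columns of other samples.

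The 64 control probe sets were left out. By the platform annotation 34945 probe sets had 1 gene symbol, 932 several and 9160 none; 34741 were matched by gene ID to RefSeq names, and unnamed probe sets entered the counts of probe sets only. One limma fit (limma 3.58.1, R 4.3.3; lmFit and eBayes without trend, group as the only factor, 6 residual degrees of freedom) took all 9 arrays; each contrast was tested two-sided at 0.05 after Benjamini-Hochberg adjustment across 45037 probe sets. It was tested on simulated data. Lists were summarised with pandas 2.3.3 and numpy 2.4.6.

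Lists (33 of pathways and 14 of cell types, 860 of 950 gene names measured) were described by counts and medians over members with a mean of 7 or more, with no test. Members, lists and rules were chosen with earlier results of these data known. Named were, in each direction, the 15 genes of smallest p with a mean of 7 or more and no overlap (clone and predicted names left out) and the 3 of smallest p below 7; of each list its core genes and up to 3 of smallest p; and further list members and other probe sets where a paragraph turns on them, chosen after their values were seen. The level threshold fell between Gbp2 (mean 7.0004, difference 0.54) and Htra1 (6.9998, -0.57).

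Alternatives were quantile normalization, equal array medians, only probe sets with a mean of 7 or more, trend and robust fitting, only the 6 arrays compared, array weights, averaging a gene's probe sets, the replicate block, and fits without 1 array. The filter together with trend and robust fitting, and lists over all measured members, were added after seeing the data. The labels give no batch or scan date.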

Additional observations from a re-analysis of the deposited data

How the results depend on the processing

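The count of 0 called probe sets for insulin against untreated held under every alternative run, with smallest adjusted p values in limma from 0.0836 (without BI replicate 3) to 1.0 (trend and robust fitting, and the level filter). Same-numbered untreated and insulin arrays share only a number: their deviations from the group means correlated at 0.06, -0.09 and -0.23, and with the replicate number as a block 0 probe sets were called (smallest adjusted p 0.681, 2115 at an unadjusted p under 0.05). For insulin against BI 0 probe sets were called under the other settings, and 0 to 1 when an array was left out. Arrays did not overlap for 8.54% of probe sets with a mean of 7 or more, against 9.19% of all.

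Of 3008 differences of named genes recomputed under the alternatives 42 had the other sign, and the cause was not tested. Some alternatives could not change a difference, which is the insulin mean minus the untreated mean. These were the level filter, trend and robust fitting, the compared arrays alone, the replicate block and fits without a BI array. The count of 42 in 3008 therefore understates how often signs turned where they could. The signs that turned with equal array medians were those of Akt2 (-0.014), Srebf2 (-0.015) and Sirt1 (-0.0044). Over the fits that leave out 1 array, with the replicates whose absence turned the sign in brackets, the difference ranged from -0.18 to 0.30 for Acaca (insulin 2 and untreated 1), -0.024 to 0.088 for Akt2 (insulin 1), -0.13 to 0.047 for Apob (untreated 3), -0.56 to 0.22 for Arntl (insulin 1) and -0.41 to 0.41 for Cela1 (untreated 1). It ranged from -0.20 to 0.41 for Cyp21a1 (untreated 3), -0.081 to 0.56 for Cyp2f2 (untreated 2), -0.48 to 1.74 for Dbp (insulin 1 and untreated 3), -0.066 to 0.21 for Dnmt1 (insulin 2) and -0.066 to 0.76 for Fabp4 (untreated 1). The range was -0.94 to 0.19 for Fasn (untreated 3), -0.12 to 0.51 for G6pc (insulin 1 and untreated 2), -0.039 to 0.21 for Gys2 (insulin 2 and untreated 2), -0.037 to 0.53 for Igfbp1 (insulin 3) and -0.74 to 0.23 for Irs2 (insulin 1). Ranges were -0.25 to 0.18 for Klf1 (insulin 2 and 3 and untreated 1), -0.57 to 1.48 for Nr1d1 (insulin 1 and untreated 2), -0.77 to 0.045 for Per2 (insulin 3), -0.18 to 0.10 for Pik3r1 (insulin 3 and untreated 2 and 3) and -0.33 to 0.16 for Ppara (insulin 3). Next came -0.0032 to 0.14 for Rpl11 (untreated 3), -1.34 to 0.048 for S100a8 (untreated 2), -0.70 to 0.75 for S100a9 (insulin 1 and untreated 2), -0.059 to 0.17 for Scd1 (untreated 1) and -0.011 to 0.10 for Sirt1 (insulin 3). The remaining ranges were -0.13 to 0.42 for Slc2a2 (untreated 2), -0.041 to 0.14 for Srebf2 (insulin 1 and untreated 1) and -0.33 to 0.28 for Tfrc (untreated 3). Of 644 list medians recomputed 18 moved by more than the spread between replicates, among them oxidative phosphorylation with equal array medians (-0.063). Alternatives that leave gene differences unchanged also leave a median over the same members unchanged, so this count too understates the movement. With 3 arrays per group, differences smaller than the intervals given by level were not resolved for most probe sets in the main fit. Those intervals are medians, and single probe sets had narrower or wider ones.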

Other observations

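Some genes with a mean of 7 or more differed by 2-fold or more but fell outside the naming rule, and are given here as values chosen after they were seen; none passed the limma threshold. Reg3b, a secreted antibacterial lectin of gut and inflamed pancreas, was at 15.35 on untreated replicate 2 alone, against 6.03 and 8.37 on the other untreated arrays and 7.80, 5.38 and 10.55 on the insulin arrays. Rgs16, which ends signalling by G protein-coupled receptors, stood at 7.25, 7.67 and 7.88 on the untreated arrays and 10.63, 10.97 and 7.20 on the insulin arrays, so insulin replicate 3 did not share the high level of the others. Cyp26b1, which breaks down retinoic acid, stood at 7.62, 3.77 and 3.99 on the untreated arrays and 7.54, 8.59 and 7.03 on the insulin arrays, with untreated replicate 1 at the insulin level. Derl3, of ER-associated degradation, stood at 9.37, 7.72 and 6.88 on the untreated arrays and 9.88, 9.26 and 9.38 on the insulin arrays. Ces2b, a carboxylesterase, stood at 8.51, 6.34 and 8.30 on the untreated arrays and 9.39, 9.15 and 8.82 on the insulin arrays, without overlap. Zdhhc12, a palmitoyltransferase, stood at 10.02, 9.60 and 9.77 on the untreated arrays and 9.41, 8.33 and 7.36 on the insulin arrays, without overlap. Ptk6, a tyrosine kinase of epithelia, stood at 7.83, 7.87 and 7.69 on the untreated arrays and 6.32, 6.94 and 6.99 on the insulin arrays, also without overlap.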
